A study of Mus musculus with 211 samples.

Results

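The 9 genes described here are receptors and signalling adaptors of the innate immune system: the adaptors Fcer1g and Tyrobp, the Fc gamma receptors Fcgr3, Fcgr4 and Fcgr2b, the paired receptor Pirb, and the C-type lectin receptors Clec4d, Clec4e and Clec7a. All 9 were found by Ensembl identifier among 48709 genes counted in 211 single cells. The family was selected on the detection and level of its genes in these same cells, so detection and level of the members are given as a description with no test. The cells came from the cochleae of adult CD1 mice that carry Lfng-EGFP, a bacterial artificial chromosome transgene in which regulatory sequence of Lfng drives EGFP. Mice were at postnatal day 60 (P60, 8 captures) or postnatal day 120 (P120, 4 captures), both ages carried the transgene, and the labels name no treatment. GFP-positive cells were sorted by FACS after staining with propidium iodide and captured on the Fluidigm C1, a microfluidic chip that holds each cell in its own chamber. Each capture pooled the cochleae of several mice of either sex, so the capture, and not the cell or the mouse, was the replicate for the comparison of the ages.

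Immune receptors of this kind often lack a signalling tail of their own. FCER1G, the common gamma chain of Fc receptors, and TYROBP, also called DAP12, are short membrane proteins whose cytoplasmic ITAM motif is phosphorylated by Src family kinases and then binds the kinase SYK. Fc receptors bind the constant region of antibodies, C-type lectins such as CLEC4E and CLEC7A bind glycolipids and sugars of microbes and dead cells, and paired receptors come as activating and inhibitory relatives with similar outer parts. Inhibitory members carry an ITIM motif, which recruits phosphatases. Neutrophils, basophils, monocytes and macrophages are known to use these receptors, and the cochlea is known to hold resident macrophages.

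The labels call the sorted cells cochlear supporting cells. Each cell was thinned at random to 50000 reads where depth had to be equal, which 164 cells allowed (80 at P60 and 84 at P120), and the share of cells with a read refers to these cells unless stated. Of the 15 supporting cell genes, 0 were seen in 50% of the cells, Fgfr3 and Epyc were at 0, Sox2 was in 0.610% and Lfng, which has the promoter used for the sort, was in 47.6%. At least 10 reads of 3 or more of these genes were held by 8 of the 211 cells. Of 8 leukocyte genes 7 were in 50% or more of the cells, with Ptprc in 84.1%, and of 10 neutrophil genes 9 were, with S100a8 in 95.1%. Their summed level was 0.797% to 1.01% (leukocyte genes) and 9.26% to 15.6% (neutrophil genes) of the reads of the P120 captures, against 0.0352% to 1.42% and 2.13% to 25.7% in the P60 captures. Of 8 monocyte and macrophage genes none was in more than 6.71% of the cells and Ms4a7 was at 0. At least 10 reads of 3 or more of them were held by 3 of the 211 cells, which were not looked at singly. Leukocyte genes were thus in most cells and supporting cell genes in few, and the cells are described below by the genes measured in them and not by the label.

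Reads on genes per cell ran from 41 to 5361476, with a median of 736455. The captures differed widely in depth, from 119240 reads in capture 10c (P60, 13 cells, of which 1 reached 50000 reads) to 44268475 in capture 28 (P120, 37 cells). Captures 9c, 10c, 17c, 19c, 20c and 21c were sequenced in a run that held P60 cells only, and the other 6 captures in runs that held both ages.

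Tyrobp was the most widely seen member, with a read in 94.3% of the 211 cells and, at equal depth, in 151 of 164 (92.1%, exact 95% interval 86.8% to 95.7%; all intervals are Clopper-Pearson and cover counting error only). The shares depend on the threshold. With at least 10 reads, in the 211 cells and without equal depth, Tyrobp was in 75.8%, Fcer1g in 65.4% and Fcgr3 in 49.8%. Clec4e was then in 45.5%, Clec4d in 39.3%, Clec7a in 34.1%, Pirb in 32.7%, Fcgr2b in 30.3% and Fcgr4 in 3.79%. Tyrobp lies at chr7:30413760-30417585 (GRCm38, plus strand). Its summed level per capture, in CPM (reads scaled to equal totals of reads on genes), ran from 50.3 to 8050 at P60 with a median of 1869 (8 captures), and was 1110, 1735, 3848 and 1995 in P120 captures 28, 32, 36 and 38. The lowest value was that of the shallow capture 10c and the highest that of capture 19c, and the P120 values lay inside the P60 range. In a sum over cells, fewer cells with a transcript and less transcript per cell cannot be told apart.

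Fcer1g (chr1:171229572-171234365, minus strand) had a read in 85.3% of all cells and in 129 of 164 at equal depth (78.7%, 71.6% to 84.7%). Its level was 41.9 to 2953 CPM at P60 with a median of 738, and 987, 1100, 745 and 706 CPM in P120 captures 28, 32, 36 and 38. The P120 captures were closely grouped, and the P60 captures enclosed them. Capture 19c gave the highest level of both adaptors. Reads of both adaptors were spread over many cells: the 5 cells with the most held 24.2% of all Fcer1g reads and 15.4% of all Tyrobp reads.

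The promoter of Fcer1g is shown because this chain is known as the partner of several of the receptors below. It covers chr1:171234300-171234599 (RefSeq, GRCm38.p6, minus strand), 250 bases before the transcription start and 50 after it, and is written 5′ to 3′. Motif matches are in capitals in the sequences shown, and this window had none.
Fcer1g: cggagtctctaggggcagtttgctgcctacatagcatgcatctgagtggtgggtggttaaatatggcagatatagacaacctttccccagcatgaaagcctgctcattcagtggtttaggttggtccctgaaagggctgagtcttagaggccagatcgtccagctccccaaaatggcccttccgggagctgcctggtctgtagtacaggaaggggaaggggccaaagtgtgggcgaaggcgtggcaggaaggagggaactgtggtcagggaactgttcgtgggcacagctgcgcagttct
Promoters of 8 of the 9 members were found in RefSeq (10 starts in all). They were searched on both strands for AGGAAGT, the core bound by ETS factors including PU.1, for TTGCNNAA, a C/EBP core, and for TGACTCA, an AP-1 site. AGGAAGT is in 9.35% of 32851 mouse promoters of the same length, TTGCNNAA in 10.8% and TGACTCA in 5.20%. AGGAAGT was found in the promoters of Fcgr4 and Pirb, beginning 24 and 119 bases before the start, and TTGCNNAA in those of Fcgr3 and Clec4e. The matches found do not overlap. A match describes the letters of the window, and no match says nothing of a factor.

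Fcgr3, the activating low-affinity receptor for IgG that signals through FCER1G, was seen in 61.6% of 164 cells (53.7% to 69.1%). It lies at chr1:171051174-171064935 on the minus strand. Its level was 0 to 1255 CPM at P60 with a median of 411, and 752, 271, 578 and 275 CPM in P120 captures 28, 32, 36 and 38. The P60 captures at the low end were 10c, with 0 reads among 119240, where 3 reads would be 25.2 CPM, and 21c with 5.35 CPM.

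Fcgr2b, the inhibitory receptor for IgG with an ITIM, was in 65 of 164 cells (39.6%, 32.1% to 47.6%). It lies at chr1:170958617-170976547, minus strand. Its level was 0 to 503 CPM at P60 (median 31.8) and 242, 79.9, 21.3 and 173 CPM in P120 captures 28, 32, 36 and 38. Capture 40 was the highest of the P60 captures and the next one, capture 31, was at 134 CPM. The 5 cells with the most reads held 58.3% of all Fcgr2b reads. Fcgr2b overlaps the antisense gene Gm38204, and because the strand used in counting is not given in the sources used here, reads of the pair cannot be told apart. The outer domains of Fcgr2b and Fcgr3 are alike in sequence, so reads could be split between them.

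Fcgr4, an activating receptor for IgG that also needs FCER1G, was rare. It lies at chr1:171018920-171029761, plus strand, and was in 11 of 164 cells (6.71%, 3.40% to 11.7%). Its level was 0 to 72.6 CPM at P60 (median 12.4) and 73, 0.0300, 10.2 and 0.0764 CPM in P120 captures 28, 32, 36 and 38, and the values of captures 32 and 38 rest on 1 and 2 reads. A single cell held 53.2% of all Fcgr4 reads and 5 cells held 97.4%. Thus the capture sums of Fcgr4 mostly recorded whether such a cell was in the capture.

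Pirb, an inhibitory receptor with ITIMs that binds MHC class I, was in 76 of 164 cells (46.3%, 38.5% to 54.3%). It lies at chr7:3711409-3720391, minus strand. Its level was 0 to 594 CPM at P60 (median 120) and 338, 473, 548 and 91.8 CPM in P120 captures 28, 32, 36 and 38. Captures 10c and 17c had 0 reads, where 3 reads would be 25.2 and 0.903 CPM, and capture 21c had 4 reads. Capture 17c held only 3 cells, so its 0 sets no firm limit. Pirb is nearly identical over long stretches to the activating Pira genes, so its counts are uncertain to the extent that shared reads were kept or dropped.

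The 3 C-type lectins lie on chromosome 6. Clec4d and Clec4e are neighbours with 6524 bases between them, at chr6:123262111-123275265 on the plus strand and chr6:123281789-123289870 on the minus strand, and Clec7a is at chr6:129461591-129472779 on the minus strand. GENCODE vM21 lists Clec7a as a polymorphic pseudogene. CLEC4E (Mincle) binds mycobacterial glycolipid and pairs with FCER1G, CLEC4D (MCL) forms a complex with it, and CLEC7A (Dectin-1) binds beta-glucan and has a signalling motif in its own tail. Clec4e was in 91 of 164 cells (55.5%, 47.5% to 63.2%), Clec4d in 82 (50%, 42.1% to 57.9%) and Clec7a in 76 (46.3%, 38.5% to 54.3%).

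Levels of the lectins varied widely among captures. Clec4e was at 41.9 to 5830 CPM at P60 (median 501), and at 827, 500, 3912 and 706 CPM in P120 captures 28, 32, 36 and 38. Clec4d was at 16.8 to 3620 CPM at P60 (median 353), and at 129, 675, 1457 and 159 CPM in the same P120 captures. Capture 20c gave the highest P60 value of both neighbours, and capture 36 the highest P120 value. Clec7a was at 0 to 832 CPM at P60 (median 106.5) and at 94, 785, 4057 and 638 CPM in P120 captures 28, 32, 36 and 38. Here too capture 36 was the highest P120 capture, while the most at P60 was in capture 31 and not in 20c. All 11 cells of capture 36 and all 7 of capture 20c that reached 50000 reads were cells with Cxcr2 or Il1b, a class described below. So were all 7 of P60 capture 19c, where Clec4d was at 793, Clec4e at 846 and Clec7a at 516 CPM. The part of this class in the levels was not tested.

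Promoters of the 3 lectins are shown because these members varied together across cells. That of Clec4d covers chr6:123261857-123262156 (plus strand), that of Clec4e chr6:123289822-123290121 (minus strand) and that of Clec7a chr6:129472730-129473029 (minus strand), the first of its RefSeq starts. Only the Clec4e window had a match, the TTGCNNAA core on the opposite strand, which begins 66 bases before the start.
Clec4d: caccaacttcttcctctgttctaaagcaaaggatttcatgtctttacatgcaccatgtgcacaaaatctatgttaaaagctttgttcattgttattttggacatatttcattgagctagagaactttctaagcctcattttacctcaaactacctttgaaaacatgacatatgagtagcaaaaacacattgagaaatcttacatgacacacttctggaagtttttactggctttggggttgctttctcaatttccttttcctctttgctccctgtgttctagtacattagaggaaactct
Clec4e: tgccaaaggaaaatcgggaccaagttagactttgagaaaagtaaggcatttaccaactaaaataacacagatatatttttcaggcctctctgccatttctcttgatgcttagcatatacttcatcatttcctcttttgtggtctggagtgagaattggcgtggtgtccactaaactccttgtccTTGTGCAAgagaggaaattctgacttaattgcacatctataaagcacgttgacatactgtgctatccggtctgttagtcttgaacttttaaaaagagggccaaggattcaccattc
Clec7a: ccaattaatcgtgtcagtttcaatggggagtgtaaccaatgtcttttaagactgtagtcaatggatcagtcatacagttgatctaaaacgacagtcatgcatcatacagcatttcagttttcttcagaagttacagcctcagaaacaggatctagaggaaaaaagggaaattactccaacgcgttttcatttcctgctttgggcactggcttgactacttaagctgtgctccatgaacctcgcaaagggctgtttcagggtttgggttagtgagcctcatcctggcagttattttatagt

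To compare genes, the CPM of each was divided by its exon length. In median CPM per kb over the 12 captures the order was Tyrobp (2797), Fcer1g (912), Clec4d (247), Fcgr3 (237), Clec7a (126), Clec4e (116), Pirb (38.3), Fcgr2b (9.18) and Fcgr4 (5.46). Tyrobp was above Fcer1g in 12 of 12 captures, Fcer1g above Clec4d in 10 and Clec4e above Pirb in 11. Clec4d, Fcgr3, Clec7a and Clec4e could not be ordered: each was above the next in 5 or 6 of 12 captures. Pirb was above Fcgr2b, and Fcgr2b above Fcgr4, in 8 of 12. Among all genes ranked by total reads, Tyrobp stood at 40, Fcer1g at 87 and Clec4e at 99, and Fcgr4 at 4643.

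**Figure D1:**
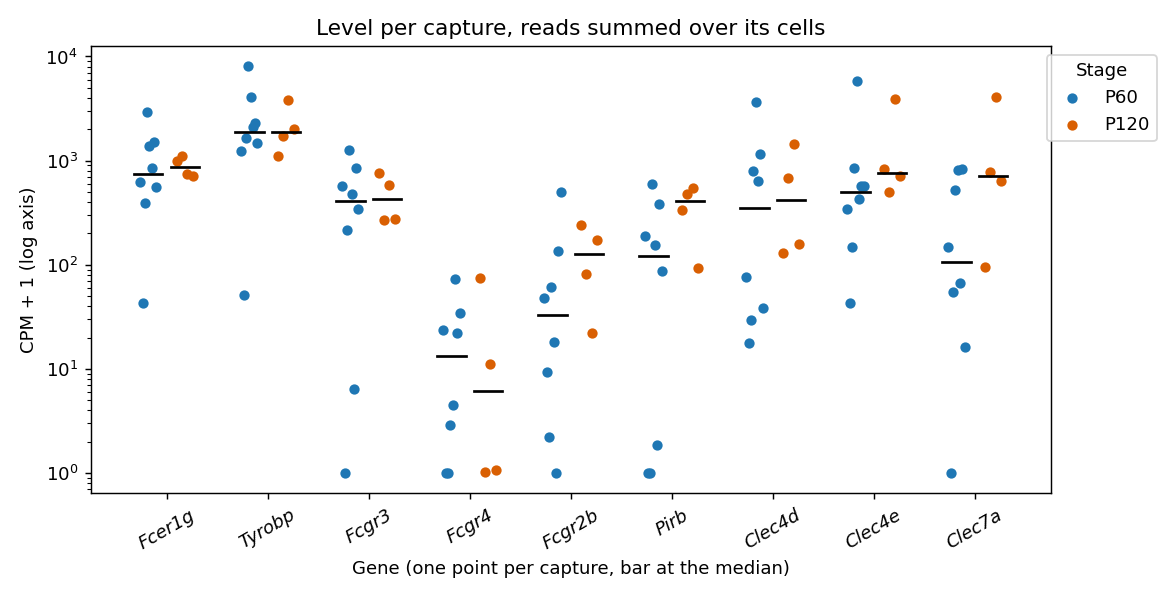
Level of each gene in each capture (CPM + 1, log axis, reads summed over the cells of the capture), with P60 captures in blue (n = 8), P120 captures in orange (n = 4) and bars at the medians. The ages overlap for all 9 genes, the adaptors are high in nearly every capture, and Fcgr4 stays at or below 73 CPM.

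The study collected GFP-positive cells at 2 ages, so the question for the members was whether P60 and P120 differed. The ages did not hold the same mix of cells by the genes measured: of the classes described below, 20 of 21 cells with basophil genes were of P120 and 12 of 16 cells outside the classes were of P60. P60 captures 9c, 10c, 17c, 19c, 20c and 21c were in a run without P120 cells, and the tests had no term for run. Only P60 captures 31 and 40 shared runs with P120, so age and run cannot be told apart for most P60 captures. In edgeR's quasi-likelihood test on captures, 0 of the 9 members passed an adjusted p of 0.05, beside 10 of 8346 genes tested (0.12%). At an unadjusted p under 0.05 there was 1 of 9 members, Clec7a, beside 443 of 8346 genes. With limma 0 of 9 passed, beside 0 of 5640 genes tested. With DESeq2 0 of the 7 members that it gave a p passed, beside 21 of 8346 genes. It gave none for Clec4e (log2 difference 3.35, SE 1.37) and Clec7a (4.88, SE 1.56), the members with its largest differences. Fcer1g differed by a log2 fold change (P120 over P60) of -0.23 (SE 1.35), Tyrobp by 0.16 (SE 1.27), Fcgr3 by 0.24 (SE 1.40) and Fcgr2b by 0.30 (SE 1.71). Fcgr4 was at 0.01 (SE 2.19), Pirb at 1.27 (SE 1.45), Clec4d at 0.16 (SE 1.34) and Clec4e at 1.11 (SE 1.27). The adjusted p of these 8 was 1.0 by the same test. Clec7a had the largest difference, 2.94 (SE 1.30), with p = 0.0237 and adjusted p = 0.742 by the same edgeR test. Without capture 36 the log2 difference of Clec7a was 0.41. With standard errors of 1.27 to 2.19 on the log2 scale, a modest difference was not detectable in any member. The median log2 fold change over all genes tested was 0.26, which lay near the median of the members, 0.24.

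The test for the share of cells with a read called no member, though for the reason given below it could not have called any. At equal depth the mean share at P60 and P120 was 78.8% ± 16.4 (SD, n = 6 captures with at least 3 cells) and 77.3% ± 11.3 (n = 4) for Fcer1g, and 90.03% ± 15.7 and 91.3% ± 5.37 for Tyrobp. For Fcgr3 the means were 61.2% ± 22.2 and 59.8% ± 8.42, for Fcgr2b 35.1% ± 25.9 and 32.6% ± 16.5, and for Pirb 41.5% ± 25.9 and 44.4% ± 11.7. For Clec4d they were 57.9% ± 28.7 and 58.9% ± 28.3, for Clec4e 58.2% ± 19.1 and 59% ± 8.09, and for Clec7a 56% ± 31 and 50.3% ± 22.4. Fcgr4 had 11.6% ± 5.86 and 5.08% ± 3.82, a difference of -6.55 percentage points with p = 0.0857 in the exact two-sided permutation test over captures. The smallest p this design allows is 0.00952, and with adjustment over 8346 genes all 9 members had p = 1, beside 0 of 8346 genes called (0%) and 1.27% of genes with an unadjusted permutation p under 0.05. With so few genes under 0.05, a member at that smallest p would not have passed the adjustment either. The test thus says nothing on whether the shares of the members differed. Among the 97 cells with Cxcr2 or Il1b, which are of both ages in nearly equal number (49 at P60, 48 at P120), the shares at P60 and P120 were nearest for Tyrobp (95.9% and 95.8%) and farthest apart for Fcgr3 (75.5% and 60.4%), with no test.

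**Figure D2:**
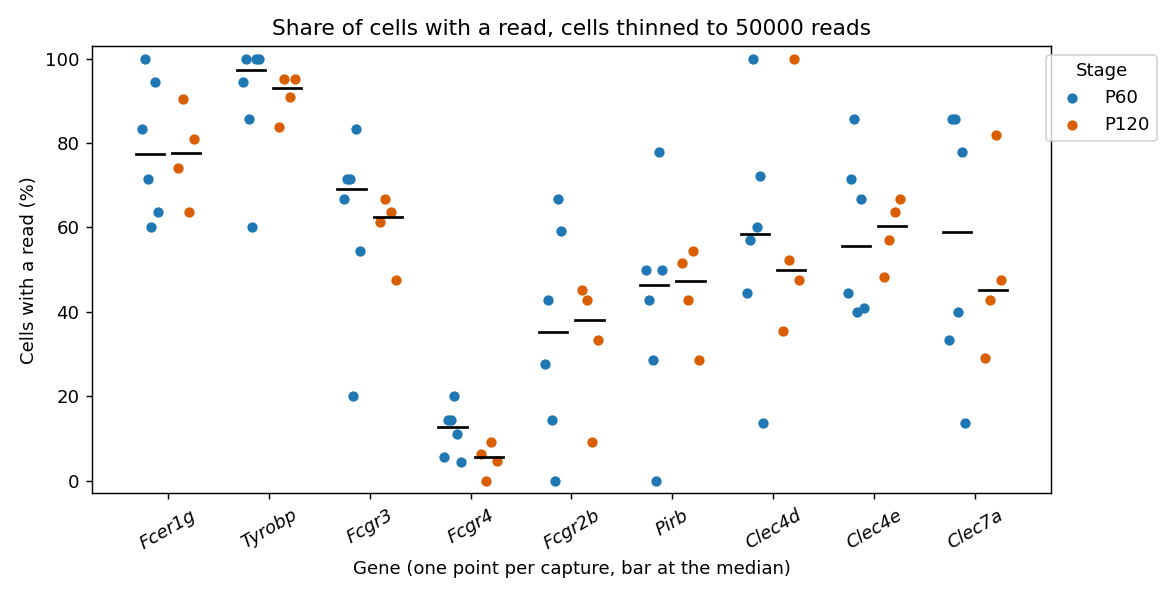
Share of cells with a read of each gene, in percent, in every capture with at least 3 cells thinned to 50000 reads (P60 in blue, n = 6; P120 in orange, n = 4; bars at the medians). The ages overlap for all 9 genes, and the captures spread from 13.6% to 100% for Clec4d and from 0% to 77.8% for Pirb.

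The cells were next separated by genes that are not members. Of the 164 cells, 21 held at least 10 reads of 2 or more of the basophil genes Mcpt8, Prss34, Cpa3 and Gata2, 30 others did so for the primary granule genes Elane, Mpo, Prtn3 and Ctsg, which neutrophil precursors transcribe, and 97 of the rest held 10 reads of Cxcr2 or Il1b, genes of mature neutrophils. The other 16 met none of these rules. The classes are cuts in a range: 10 of the 30 primary granule cells and 10 of the 21 basophil gene cells also held 10 reads of Cxcr2 or Il1b, and 12 of the 16 remaining cells held at least 1 read of them. Of the basophil gene cells 20 were from P120 captures, 18 of them from captures 28 and 32, so age and capture cannot be told apart for that class. Median reads were 865094 in the Cxcr2 or Il1b cells and 1825680 and 1700682 in the primary granule and basophil gene cells, and all shares here are at equal depth.

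All 3 lectins were seen most often in the cells with Cxcr2 or Il1b. Clec7a was in 68% of them (57.8% to 77.1%), in 23.3% of the primary granule cells (9.93% to 42.3%) and in 1 of 21 basophil gene cells (4.76%, 0.120% to 23.8%). Clec4d was in 71.1%, 23.3% and 14.3% of these classes, and Clec4e in 68%, 36.7% and 38.1%. Pirb was in 55.7%, 36.7% and 19% of them, and in 43.8% of the 16 cells outside the classes. Fcgr4 was in 10 of 97 cells with Cxcr2 or Il1b, in 1 of the 16 cells outside the classes, and in 0 of 30 and 0 of 21 in the other classes, where the exact intervals reach 11.6% and 16.1%.

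Fcgr2b had another order. It was in 34% of the cells with Cxcr2 or Il1b (24.7% to 44.3%), in 60% of the primary granule cells (40.6% to 77.3%) and in 47.6% of the basophil gene cells (25.7% to 70.2%). The activating receptor Fcgr3 was in 68%, 63.3% and 52.4% of the same classes, with intervals that overlap. Tyrobp was in 95.9%, 93.3% and 81%, and Fcer1g in 83.5%, 60% and 81%. Mean levels separated the classes more than shares did for Tyrobp: 3994 CPM in the cells with Cxcr2 or Il1b, 562 in the primary granule cells and 684 in the basophil gene cells. The medians were 2701, 272 and 833 CPM. For Fcer1g the mean levels were 1337, 549 and 460 CPM and the medians 759, 53.1 and 234 CPM, so the order of the primary granule and basophil gene cells was not the same by mean and by median.

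The same contrast was made inside the 6 captures that had at least 3 cells with Cxcr2 or Il1b and 3 of the primary granule and basophil gene cells together. The share was higher in the Cxcr2 or Il1b cells in 6 of 6 captures for Clec7a (median difference 40.8 percentage points, range 3.41 to 81.8), Pirb (38.1, 11.9 to 48.4), Clec4e (36.8, 7.89 to 47.7) and Fcer1g (13.1, 0.909 to 33.3). The primary granule and basophil gene cells together numbered 4 in capture 9c, 3 in 31 and 3 in 38. For Fcer1g the shares in capture 32 were 90.9% and 90%. The share was higher in 5 of 6 captures for Clec4d (37.1) and Fcgr4 (9.13). For Fcgr2b it was higher in 1 of 6, with a median of -30.3 points, for Fcgr3 in 3 of 6, and for Tyrobp in 2 of 6 with a median of 0 and a range of -11.1 to 26.3 points. The exception for Clec4d was capture 40, where 12.5% of 8 cells with Cxcr2 or Il1b and 18.2% of 11 others had a read. As the members were chosen with such groups of cells known, no test was made of these differences.

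**Figure D3:**
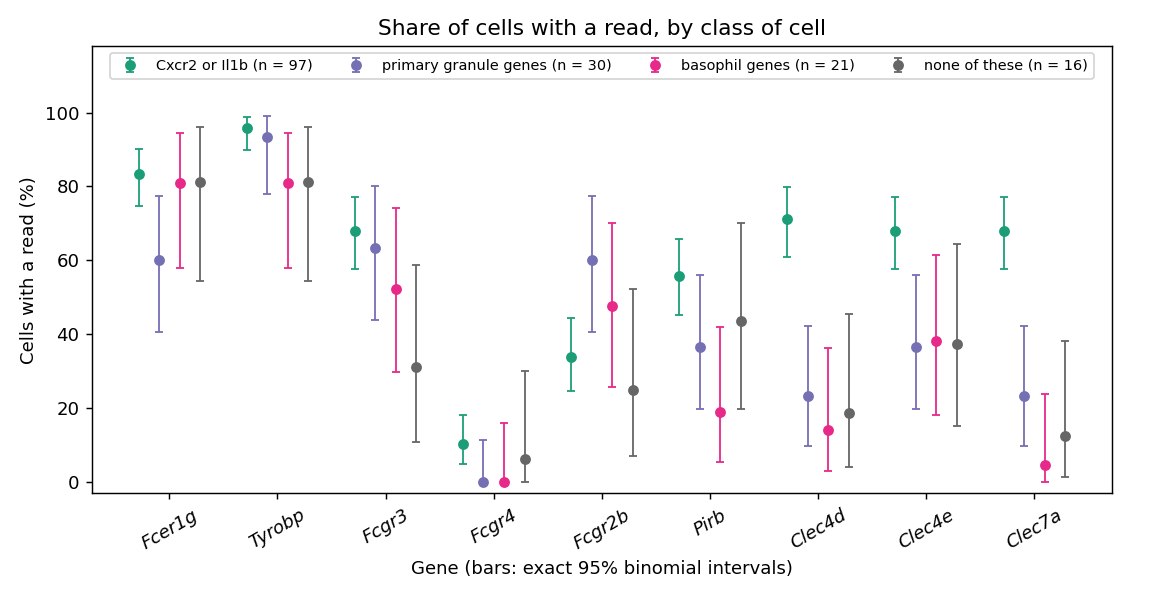
Share of cells with a read of each gene, in percent, at 50000 reads per cell, in cells with Cxcr2 or Il1b, with primary granule genes, with basophil genes or outside these classes (points, with bars for exact 95% binomial intervals over cells). Clec4d, Clec4e and Clec7a are highest in the cells with Cxcr2 or Il1b, and Fcgr2b is highest in the primary granule cells.

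The median cell held reads of 5 of the 9 members. The median was 6 in the cells with Cxcr2 or Il1b, 4 in the primary granule cells, 4 in the basophil gene cells and 3 in the remaining cells, and it was 5 at both ages. None of the 9 was read in 6 cells and none of the 7 receptors in 14.

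Receptors and adaptors were then compared within cells. Of 150 cells with at least 1 receptor, 121 (80.7%) held both adaptors, 24 Tyrobp only, 2 Fcer1g only and 3 neither. Of the 14 cells without a receptor 4 held both adaptors and 6 neither. Fcer1g was in 83.2% of cells with Fcgr3 and 71.4% of cells without it, in 84.6% and 74.7% for Fcgr2b, in 84.2% and 73.9% for Pirb, and in 10 of 11 cells with Fcgr4. For the lectins, Fcer1g was in 86.8% of cells with Clec4e and 68.5% of cells without, in 86.8% and 71.6% for Clec7a, and in 80.5% and 76.8% for Clec4d. The intervals of each of these pairs overlap. Within captures at this depth, cells with Clec4e had Fcer1g more often than cells without it in 6 of 7 captures, and for the other receptors this was so in 3 or 4 of 6 to 8 captures, with none to compare for Fcgr4. At 200000 reads per cell it was so in 5 of 5 captures for Clec7a and 5 of 6 for Clec4e. The counts there were 5 of 7 for Fcgr3 and Fcgr2b, 4 of 8 for Pirb and 2 of 6 for Clec4d. With at least 10 reads in all cells, depth was not equal. There it was so in 7 of 7 captures for Clec7a and Clec4e and 8 of 9 for Fcgr3. For Pirb it was 7 of 8, for Fcgr2b 5 of 6 and for Clec4d 4 of 8.

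Tyrobp was in 95.4% to 100% of the cells with any given receptor, and in 84.1% to 91.5% of the cells without it. Within captures the share was higher in the cells with the receptor in 2 to 4 of 6 to 8 captures. Captures where all cells held Tyrobp, such as 31 and 40, could show no difference. With at least 10 reads in all cells, without equal depth, it was higher in 8 of 9 captures for Fcgr3 and 7 of 7 for Clec7a. The counts there were 7 of 8 for Pirb and Clec4d, 6 of 6 for Fcgr2b and 6 of 7 for Clec4e. The shares at 50000 reads per cell have to be read against the high share of the adaptors in all cells. Over 2155 genes seen in at least 20% of the cells, the median share with Fcer1g was 76.3% and with Tyrobp 91.8%. The median gene had Fcer1g less often by 4.05 percentage points in its positive cells than in its negative cells. For Tyrobp this median difference was -0.52 points. The 7 receptors had differences of 3.66 to 18.3 points for Fcer1g and 5.49 to 12.9 points for Tyrobp. The lowest of them, Clec4d with Fcer1g, turned with depth: at 200000 reads per cell Fcer1g was in 84.3% of the cells with Clec4d and 88.6% of those without, a difference of -4.23 points.

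**Figure D4:**
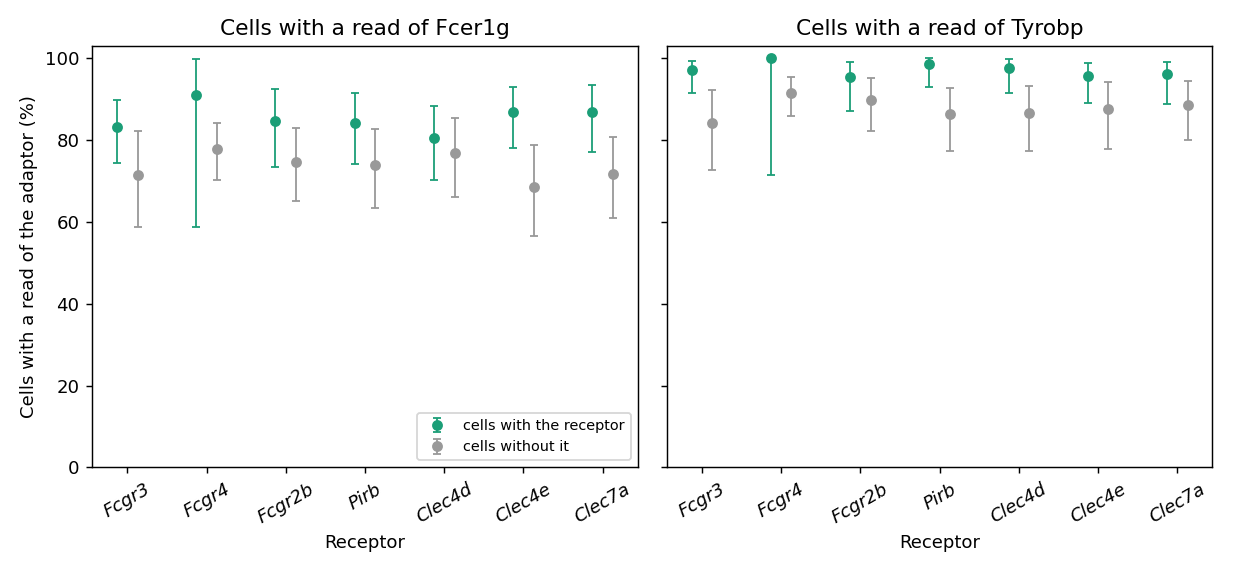
Share of cells with a read of Fcer1g (left) or Tyrobp (right), in percent, among cells with (green) and without (grey) a read of each receptor, at 50000 reads per cell (bars are exact 95% binomial intervals over cells). Every green point is above its grey neighbour, and most intervals overlap.

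Levels were compared by Spearman's rho over the 164 cells, which share captures and depth, and no p is given. Fcer1g and Tyrobp had a rho of 0.41 (0.59 at P60 and 0.24 at P120), and among the 97 cells with Cxcr2 or Il1b it was 0.16. It was above 0 in 6 of the 7 captures with at least 10 cells, and -0.47 in the seventh. With Fcer1g the receptors had rho of 0.36 (Clec7a), 0.31 (Clec4e), 0.24 (Pirb), 0.22 (Fcgr3), 0.20 (Clec4d), 0.07 (Fcgr2b) and 0.07 (Fcgr4). With Tyrobp they had 0.43 (Clec7a), 0.40 (Clec4d), 0.30 (Clec4e), 0.16 (Pirb), 0.13 (Fcgr3), 0.05 (Fcgr4) and -0.12 (Fcgr2b). The median over 2154 other genes was -0.09 with Fcer1g and -0.18 with Tyrobp.

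Within the cells with Cxcr2 or Il1b most of these values were nearer to 0. Clec7a had a rho of 0.34 with Fcer1g and 0.27 with Tyrobp there, and Fcgr2b 0.15 and -0.15. Clec4d and Tyrobp were at 0.12 in that class, Clec4e and Tyrobp at 0.04 and Pirb and Tyrobp at -0.05. Over the cells of single captures, Clec4d and Tyrobp were above 0 in all 7 captures compared, with a median of 0.35. Clec4d and Fcer1g were above 0 in 3 of 7, with a median of -0.17 against 0.20 over all cells. Among the members the highest rho was that of Clec4d with Clec7a, 0.53 (0.36 within the class). Clec4d with Clec4e was at 0.43 (above 0 in 4 of 7 captures), Clec4e with Clec7a at 0.40 and Fcgr3 with Fcgr2b at 0.38. The last was above 0 in 7 of 7 captures and was 0.46 within the class, though some reads of this pair could be shared. Fcgr2b was below 0 with Clec7a (-0.19) and Clec4d (-0.16).

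**Figure D5:**
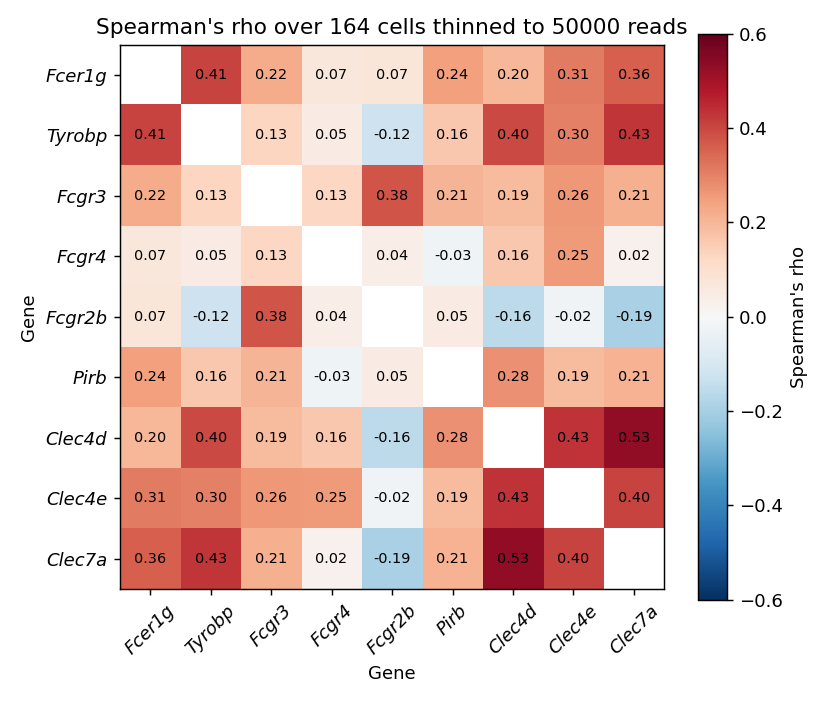
Spearman's rho between the levels of each pair of genes over 164 cells thinned to 50000 reads (colour and printed value, blue below 0 and red above 0). The lectins and Tyrobp form a block of positive values of 0.30 to 0.53, and Fcgr2b is near or below 0 with all but Fcgr3.

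The 5 genes most like Fcer1g across cells were Fxyd5 (rho 0.50), S100a11 (0.43), Slfn2 (0.42), Card19 (0.42) and Tyrobp (0.41), so 4 genes of 2154 were closer to Fcer1g than its fellow adaptor. Most like Tyrobp were Il1b (0.56), which encodes the cytokine interleukin-1 beta, S100a11 (0.56), the ferritin light chain gene Ftl1 (0.52), the activating receptor gene Trem1 (0.51), whose product signals through TYROBP, and Btg1 (0.50). As Il1b is one of the genes that set the classes, the contrast of Tyrobp levels between classes is not independent of this.

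FCER1G is also a subunit of the high-affinity IgE receptor of basophils and mast cells, whose other chains are encoded by Fcer1a and Ms4a2. Fcer1a and Ms4a2 were each in 17 of 164 cells (10.4%), of which 15 were basophil gene cells in both cases. Fcer1g was read in 13 of the 17 cells with Fcer1a (76.5%, 50.1% to 93.2%) and in 17 of 17 with Ms4a2 (80.5% to 100%). All 13 cells with both chains held Fcer1g. Of the 21 basophil gene cells, 15 held Fcer1a, 15 Ms4a2, 11 Fcgr3, 10 Fcgr2b and 1 Clec7a. Cells of this class with Fcer1a or Ms4a2 together with Fcgr3 or Fcgr2b were not counted. No member was read in 4 of the 21, and there were 6 such cells among all 164.

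The 8 cells with supporting cell genes were looked at singly. Both such cells of capture 21c, with 644039 and 2125161 reads, held a read of only 1 member each, at 1.55 CPM of Tyrobp and 0.471 CPM of Clec4e, and Ptprc was at 0 and 0.471 CPM. The other 6 cells, of captures 9c, 28 and 31, held 2 to 9 members and S100a8 at 2368 CPM or more. Members were thus at or near 0 in both cells of capture 21c, where supporting cell genes came with 12.4 and 7.53 CPM of S100a8. Between the 78 cells with a read of Lfng and the 86 without, the widest gaps were those of Clec4d (56.4% and 44.2%) and Clec7a (52.6% and 40.7%), and Tyrobp was in 92.3% and 91.9%.

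Other genes of the pathway were taken from 6 lists, of which 58 genes were tested between the ages and 0 passed, with 6 at an unadjusted edgeR p under 0.05, beside 443 of the 8346 genes tested. Of 13 other Fc receptor genes 0 were in 20% of the cells, with Fcer1a, Ms4a2 and Fcrl1 (3.05%) at the top and 5 at 0. Fcer1a had the largest share difference among them, with a mean of 1.68% of cells at P60 and 16.6% at P120 (exact permutation p = 0.0190, adjusted p = 1), and a log2 fold change of 6.22 (SE 1.78, edgeR adjusted p = 0.14). Of its reads, 18505 and 54633 were in P120 captures 28 and 32, which held 8 and 10 of the 21 basophil gene cells, and 836 in P60 capture 9c. The part of these cells in the difference was not tested. Of 21 other C-type lectin genes 3 were in 20% of the cells: Clec4a2 (47.6%), an inhibitory relative in the Clec4d and Clec4e cluster, Clec12a (45.1%), also inhibitory, and Clec5a (39%), which signals through TYROBP. Of 33 measured paired and activating receptor genes 15 were, led by Trem1 (65.2%), Trem3 (54.3%) and Cd33 (51.8%).

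Trem1 was distributed like the lectins, in 87.6% of cells with Cxcr2 or Il1b, 40.0% of the primary granule cells and 23.8% of the basophil gene cells. Of 5 other adaptor genes 1, Hcst (DAP10), was in 20% of the cells (34.8%), and the B cell receptor chains Cd79b and Cd79a were in 6.71% and 4.88%. Of 19 genes for kinases and signalling proteins below the receptors 8 were in 20% of the cells, led by Lyn (50.6%), Prkcd (47.6%) and Syk (46.3%). Of 10 phosphatase and inhibitor genes 5 were, led by Ptprc (84.1%), Ptpn6 (57.9%), which encodes the phosphatase SHP-1 that ITIMs recruit, and Inpp5d (38.4%). The median gene of these lists was in 1.22% (Fc receptors and lectins), 14% (paired and activating receptors), 4.88% (adaptors), 18.3% (kinases and signalling) and 22.9% (phosphatases and inhibitors) of cells, against 3.05% for the 17097 genes read in any thinned cell.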

How the data were processed

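Single-cell libraries of 211 cells were compared in 12 captures of 2 ages. According to the paper's methods and the labels, the authors aligned the reads with STAR to GRCm38 with GENCODE vM11 annotation, counted them per gene, and removed endothelial cells and outliers before deposit. The deposited table holds raw read counts, checked to be whole numbers, without molecular identifiers. A second deposited table gives the capture, the sequencing run and a count of uniquely mapped reads for each cell. Spike-in reads were 12.3% of the table and stayed out of every total. Symbols, positions and exon lengths came from GENCODE vM21, and 48349 identifiers matched.

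The members, lists and classes were chosen with earlier results of these data known. Genes named are the 9 members, the 5 genes most correlated with each adaptor among genes in 20% of cells, the 3 most widely seen genes of each related list with any gene passing the age test, and the marker lists; related genes with an unadjusted p under 0.05 named beyond that were picked after their values were seen. The symbols Pira1, Pira5, Pira6, Pira7, Pira11, Lilrb4a, Lilrb4 and Gp49a were not matched and are not analysed here.

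Counts were summed per capture and tested with edgeR 4.0.16 (quasi-likelihood, TMM, filterByExpr, Benjamini-Hochberg over 8346 genes). DESeq2 1.42.0, limma 3.58.1, library totals, other filters and depths, the runs with both ages, and leaving out each capture were the alternatives. Shares of cells were tested by exact permutation over captures with at least 3 cells. Thinning drew 50000 reads per cell (200000 as an alternative) with seed 17, and levels used a pseudocount of 1 CPM for correlations. The scripts were tested on simulated data. No doublet caller was run; the sort used scatter to remove doublets. Whether captures came from separate groups of mice is only implied by the methods, so p-values measure the spread between captures. The depth of a capture sets a floor of 3 reads, 0.0678 to 25.2 CPM. This floor counts reads only and takes no account of how few cells a capture held.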

Additional observations from a re-analysis of the deposited data

Results flagged for a closer look

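Of 36 groups of captures checked, 7 values lay far from the rest of their age group by Dixon's test. The test flags about 1 in 20 groups by chance where values spread normally. Levels were checked as CPM without logs and were skewed, and the groups share captures. The 7 values are thus places to look and cannot be read as an excess over chance. Fcgr4 was at 72.6 CPM in capture 21c (P60), with the other P60 captures at 0 to 33.3 CPM, and at 73 CPM in capture 28 (P120), with the others at 0.0300 to 10.2 CPM. Fcgr2b was at 503 CPM in capture 40 (P60), with the others at 0 to 134 CPM. Clec4d was at 3620 CPM in capture 20c (P60), against 16.8 to 1170 CPM in the others. Clec4e was at 5830 CPM in the same capture, against 41.9 to 846 CPM, and at 3912 CPM in capture 36 (P120), against 500 to 827 CPM. Tyrobp was read in 60% of the thinned cells of capture 21c (P60), with the other 5 P60 captures at 85.7% to 100%; that capture had 5 cells, of which 2 held supporting cell genes with almost no leukocyte reads.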

How the results depend on the processing

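Where a p was given, none of the 9 members passed the age test under 21 alternatives for the level or 15 for the share. DESeq2 gave no p for Clec4e and Clec7a. The share test called 0 of 8346 genes in each of its settings, so it could not set members apart from other genes. In the runs with both ages, the smallest p that the exact permutation test allows was 0.133. The spread between captures and their few cells set the precision. The count of genes called over the whole table, 10, was 21 with DESeq2, 5 with library totals, 42 with DESeq2 size factors in edgeR, 22 without a filter on low counts, 2 in the runs with both ages, 5 with cells thinned to 50000 reads and 0 with limma on mean log2(CPM + 1), where 66 genes had an unadjusted p under 0.05. Leaving out 1 capture gave 1 (without 10c, a capture of 119240 reads) to 16 (without 21c), and 2 without capture 36; 5 without 20c, 5 without 38, 6 without 40 and 6 without 32. The median log2 fold change of all genes moved from 0.26 to 0.75 with DESeq2 and to between 0.02 and 0.47 otherwise. Signs of these small differences turned often, and the cause was not tested. In log2 fold (P120 over P60), DESeq2 gave 4.88 for Clec7a, 3.35 for Clec4e, 3.07 for Pirb, 1.94 for Clec4d and 1.56 for Tyrobp. By the other settings Tyrobp was -0.28 with library totals, -0.072 without a filter and -0.0018 thinned; Fcgr3 -0.080 in the runs with both ages and -0.36 thinned; Fcgr4 -0.51, -0.69 thinned, -0.056 in cells with 50000 reads and -0.24 with limma; Fcgr2b -1.30 in the runs with both ages; Clec4d -0.41 with library totals and -0.16 without a filter; Fcer1g 0.25 outside the basophil and primary granule classes. Leaving out a capture gave -0.60 (without 36) to 0.37 (without 19c) for Fcer1g, -1.02 to 0.86 for Tyrobp and -0.53 to 0.83 for Fcgr3 (same captures), -1.23 (28) to 0.74 (21c) for Fcgr4, -0.031 (38) to 1.37 (40) for Fcgr2b, -1.79 (36) to 1.19 (20c) for Clec4d, -1.07 (36) to 2.55 (20c) for Clec4e, 0.21 (36) to 2.06 (19c) for Pirb and 0.41 (36) to 3.35 (28) for Clec7a.

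For shares, the P120 minus P60 difference in percentage points was 7.45 (Fcer1g), 21.1 (Fcgr3), 2.35 (Fcgr2b) and 3.66 (Clec7a) in all cells without thinning; 9.09 (Fcgr3) and 2.20 (Fcgr2b) at 10 reads; 1.16 (Fcer1g), -0.69 (Tyrobp), 4.6 (Fcgr3), -6.39 (Pirb) and -2.82 (Clec4d) at 200000 reads; -8.69 (Tyrobp), -19.5 (Pirb) and 4.62 (Clec7a) in the runs with both ages; and 1.83 (Fcgr3) and 6.47 (Clec7a) outside the basophil and primary granule classes. These are the values whose sign turned from the main setting. In the runs with both ages Fcgr2b kept its sign and had the largest difference of the members, -30.3 points. Its 2 P60 captures lay at 59.1% and 66.7% and its 4 P120 captures at 9.09% to 45.2% (permutation p = 0.133). In the same runs Clec4d was at 15.9, Fcgr3 at -9.14, Clec4e at 5.17, Fcgr4 at -2.75 and Fcer1g at -1.73 points. Leaving out a capture gave -5.88 to 3.07 (Fcer1g), -4.72 to 3.77 (Tyrobp), -9.68 to 2.99 (Fcgr3), -9.52 to 5.34 (Fcgr2b), -5.44 to 10.1 (Pirb), -12.7 to 9.38 (Clec4d), -2.87 to 6.27 (Clec4e), -16.2 to 1.40 (Clec7a) and -7.97 to -4.86 (Fcgr4, whose permutation p was 0.0476 without capture 40, adjusted p = 1). Of 27 alternative detection shares 2 moved by more than the spread among captures, of 42 co-detection shares 14 moved beyond their interval, and of 42 correlations 2 moved. No paired analysis was possible because captures carry no number shared between the ages.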

Other observations

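Across the 164 cells the reads per cell before thinning were related to some members and not to others, as a description over cells that share captures. Spearman's rho with the thinned level was 0.37 for Fcgr2b, -0.29 for Clec4d and -0.25 for Clec7a, and between -0.12 and 0.10 for the other 6. The cells with primary granule genes, where Fcgr2b was most often read, were also the deepest, with a median of 1825680 reads against 865094 in the cells with Cxcr2 or Il1b. The part of depth in the class differences beyond thinning was not tested.

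Beside Fcer1a, 5 of the 58 related genes tested had an unadjusted edgeR p under 0.05 between the ages and did not pass the adjustment. Fcrl1 was the nearest, with a log2 fold change of -12.25 (SE 3.10, adjusted p = 0.0511, edgeR), and was read in 5 of 164 cells, with 6572 of its reads in P60 capture 21c and 6 reads in all P120 captures together. Cd79a had 6.85 (SE 2.42, adjusted p = 0.416), Pilrb1 3.78 (SE 1.59, adjusted p = 0.682), Sirpb1b -4.27 (SE 1.82, adjusted p = 0.686) and Ms4a2 3.52 (SE 1.66, adjusted p = 0.837) by the same edgeR test.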
